A study of Mus musculus with 9 samples.

Results

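The BCL2 family decides whether mitochondria release the proteins that start apoptosis. Its anti-apoptotic members Bcl2, Bcl2l1 (BCL-XL), Mcl1 and Bcl2l2 (BCL-W) hold the effectors Bax and Bak1 in check, and the BH3-only members Bbc3 (PUMA), Pmaip1 (NOXA), Bid and Bcl2l11 (BIM) relieve that restraint or activate the effectors directly. Megakaryocytes and platelets are known to depend on BCL-XL for survival, and Bax, Bbc3 and Pmaip1 are known targets of p53, which is activated by DNA damage. The 10 genes were looked up by the gene name that the array files give to each probe, and all 10 were found, among 37316 genes named on the array. They were measured by 22 probes, all 22 of which passed the filter on dim probes, and 21 of the 22 were well above background on all 9 arrays. All 10 members were therefore tested, among 29410 genes tested in all.

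The data were single-color Agilent arrays of total RNA from mature megakaryocytes (mMKs) of male mice, 3 arrays in each of 3 groups, with different donors in each of the independent experiments. The study's methods name C57BL/6 as its wild-type strain, and the labels give no strain or age. One group was not irradiated (Ctrl, sham-irradiated in the methods), and the others received a single whole-body dose of 5 Gy gamma rays and were sampled 1 day (1 dpi) or 3 days (3 dpi) post irradiation. The mMKs were enriched from bone marrow by magnetic selection for CD41 and then for CD42d, so other cells that carry or bind these antigens can remain. A value below is the log2 intensity of a probe minus the 75th percentile of its array, and it can be compared between arrays but not between probes.

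The brightness of the arrays differed between the groups. The 75th percentile of log2 intensity was 9.52, 10.12 and 10.15 on the Ctrl arrays, 8.85, 8.96 and 8.94 at 1 dpi, and 9.85, 10.04 and 10.02 at 3 dpi. Ctrl replicate 1 was the only array on its slide, and the other 8 shared the second slide. That array also stood apart from its group. The SD of its gene-wise differences from the other Ctrl arrays was 0.679 and 0.681, against 0.242 between those arrays, so the members called are also given without it.

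After the scaling, all genes together still had a median change of 0.23 (log2) at 1 dpi against Ctrl, 0.12 at 3 dpi against Ctrl and -0.08 at 3 dpi against 1 dpi. Changes relative to these medians are given beside the fold changes. A gene was called when limma's adjusted p over all genes was below 0.05 and the change was at least 2-fold, and the words rose and fell are kept for called genes.

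At 1 dpi, 3 of the 10 members rose against Ctrl and 0 fell: the effector Bax, and the BH3-only genes Bbc3 and Pmaip1. Among all genes 14.8% were called, 11.7% higher and 3.08% lower. Without a minimum fold change, 8 of 10 members passed at an adjusted p below 0.05, 6 higher and 2 lower, against 55.3% of all genes, 33.4% higher and 21.9% lower. The share of members was above that of all genes by both counts, although more than 1 gene in every 2 passed without a minimum fold change. Because the members were chosen with earlier results of these data known, this difference is a description only. The arrays of the groups did not overlap for 9 of 10 members, against 67.2% of all genes. The median log2 fold change of the members was 0.36, which was 0.13 above that of all genes.

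At 3 dpi, 0 of 10 members were called by limma against Ctrl, and 8.83% of all genes were, 7.04% higher and 1.79% lower. At an unadjusted p below 0.05 limma passed 9 of 10 members, against 41.5% of all genes. At an adjusted p below 0.05 with no minimum fold change it again passed 9, with 8 higher and 1 lower, against 31.9% of all genes, 17.1% higher and 14.8% lower. The 2-group test of the study's methods passed 9 members at an unadjusted p below 0.05 and 8 after adjustment, against 35.8% and 24.1% of all genes. The arrays did not overlap for 9 members, against 47.2% of all genes. The members' median was 0.52, or 0.41 above that of all genes.

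Between 3 dpi and 1 dpi, 2 of 10 members fell, Bax and Bbc3, and 0 rose. Of all genes 8.64% were called, 4.16% higher and 4.48% lower. Without a minimum fold change 5 members passed at an adjusted p below 0.05, 2 higher and 3 lower, against 44.3% of all genes, 21% higher and 23.3% lower. The arrays did not overlap for 9 members, against 65.2% of all genes. The members' median of -0.05 was 0.04 above that of all genes. All 3 comparisons reuse the same 9 arrays, and both comparisons with Ctrl share the Ctrl arrays.

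The direction of the calls among all genes depended on the scaling and, between the times, on the filter. At 1 dpi 79.2% of called genes were higher than in Ctrl, against 45.0% after scaling to the array median, 56.2% after quantile normalization, 68.8% with normexp background correction before it, 55.0% relative to the median of all genes, and 49.8% in the deposited table. Between 3 dpi and 1 dpi the share was 48.2%, against 68.2% after scaling to the array median, 62.9% after quantile normalization, 62.6% in the deposited table, 34.5% without a filter on dim probes and 39.6% with probes well above background on all 9 arrays. At 3 dpi against Ctrl it was 79.7%, against 66.8% in the deposited table. Without Ctrl replicate 1, 3, 0 and 2 members were called in the 3 comparisons, as with it.

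**Figure D1:**
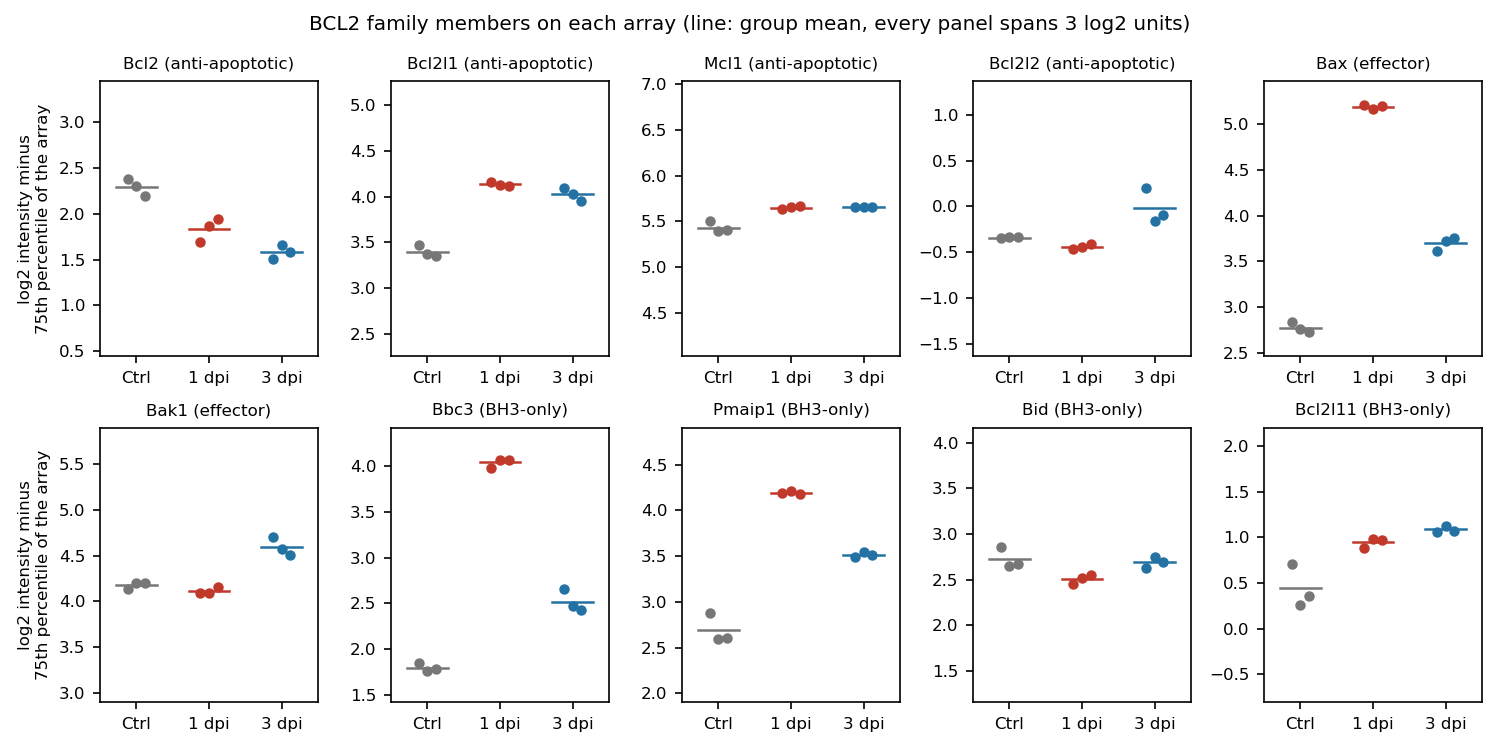
Log2 intensity minus the 75th percentile of the array (vertical axis) of the probe that stands for each of the 10 members, on the 3 arrays of Ctrl, 1 dpi and 3 dpi. Points are arrays, lines are group means, and every panel spans 3 log2 units. Bax lay between 2.72 and 2.83 in Ctrl, between 5.16 and 5.21 at 1 dpi and between 3.61 and 3.76 at 3 dpi.

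Among the anti-apoptotic members, Bcl2l1 had the largest positive difference from Ctrl at both times. Its brightest probe read 3.47, 3.37 and 3.35 in Ctrl, 4.16, 4.12 and 4.12 at 1 dpi, and 4.10, 4.03 and 3.96 at 3 dpi. Both irradiated groups lay above every Ctrl array, and the arrays at 3 dpi lay just below those at 1 dpi. The log2 fold change was 0.74 at 1 dpi (SE 0.063, adjusted p = 7.2e-05, n = 3 arrays per group by limma) and 0.63 at 3 dpi (SE 0.063, adjusted p = 2e-04), 0.51 above the median of all genes each time, and it was short of 2-fold. At 1 dpi it was 0.41 when arrays were scaled to their median. The difference between the times was -0.11 (adjusted p = 0.21), and it turned to 0.07 when arrays were scaled to their median.

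The other 4 probes of Bcl2l1 were dimmer and gave changes of the same sign against Ctrl. At 1 dpi they gave 0.78, 0.98, 0.80 and 1.07, and the last, a probe for the transcript NM_001289739, was called (adjusted p = 0.00014). This call was lost without 1 dpi replicate 3 (0.97), when arrays were scaled to their median (0.74), after quantile normalization (0.63, or 0.24 with normexp) and relative to the median of all probes (0.87), which was 0.20 at 1 dpi and 0.07 at 3 dpi. The probe at 0.98 was called without Ctrl replicate 1 (1.02), 1 dpi replicate 2 (1.01) or 1 dpi replicate 3 (1.00). At 3 dpi they gave 0.48, 0.59, 0.43 and 0.75, and each lay lower at 3 dpi than at 1 dpi by 0.31 to 0.39. Across the alternatives their lowest values at 3 dpi were 0.29, 0.29, 0.18 and 0.18. Their smallest differences between the times were -0.13, -0.15, -0.14 and -0.062. The dimmer of both probes for NM_009743, at chr2:152655185-152655244 on the minus strand of mm9, is shown because it lies far from the site of the brightest probe and had the same sign (0.80 at 1 dpi). All sequences here run 5′ to 3′.
Bcl2l1 probe: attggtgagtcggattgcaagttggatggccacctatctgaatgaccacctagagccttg

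Bcl2 was measured by 3 probes with unlike profiles. The brightest probe, for NM_009741, read 2.38, 2.30 and 2.20 in Ctrl, 1.69, 1.87 and 1.95 at 1 dpi, and 1.51, 1.66 and 1.58 at 3 dpi. The groups did not overlap, with Ctrl highest and 3 dpi lowest. Its log2 fold change was -0.46 at 1 dpi (adjusted p = 0.0036, SE 0.089) and -0.71 at 3 dpi (SE 0.089, adjusted p = 0.00065), or -0.68 and -0.83 relative to all genes, and at 1 dpi it was -0.78 when arrays were scaled to their median. The difference of -0.25 between the times did not pass (adjusted p = 0.052).

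The probe for NM_177410 read 1.48, 1.40 and 1.37 in Ctrl, 1.78, 1.79 and 1.73 at 1 dpi, and 0.93, 0.90 and 0.83 at 3 dpi. Its values were thus highest at 1 dpi and lowest at 3 dpi, with a log2 fold change of 0.35 (adjusted p = 0.0023) and then -0.53 (adjusted p = 0.00045) against Ctrl, although the first was 0.15 relative to all probes and 0.024 when arrays were scaled to their median. The dimmest probe, for ENSMUST00000189999, read -0.28, -0.35 and -0.35 in Ctrl, -1.69, -1.55 and -1.46 at 1 dpi, and -1.37, -1.20 and -1.18 at 3 dpi. That probe fell at 1 dpi by 1.24 (adjusted p = 2.2e-05) and gave -0.93 at 3 dpi, or -1.002 relative to all probes and -1.08 when arrays were scaled to their median, which passed 2-fold. Against Ctrl the 3 probes of Bcl2 thus differed in sign at 1 dpi and were all lower at 3 dpi. The NM_177410 probe, at chr1:108608970-108609029 on the minus strand of mm9, is shown because its sign at 1 dpi was opposite to that of the others. With the deposited values, which follow the dimmest probe, the difference between the times was 0.43, opposite in sign to the brightest.
Bcl2 probe: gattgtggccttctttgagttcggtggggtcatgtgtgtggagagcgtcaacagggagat

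Mcl1 encodes a short-lived protein that binds NOXA. Its brightest probe read 5.50, 5.39 and 5.41 in Ctrl, 5.63, 5.65 and 5.67 at 1 dpi, and 5.66 on each of the 3 arrays at 3 dpi. Both irradiated groups lay above Ctrl and overlapped each other. The difference from Ctrl was 0.22 at 1 dpi (SE 0.055, adjusted p = 0.012), which was -0.01 relative to all genes and turned to -0.11 when arrays were scaled to their median, to -0.06 after quantile normalization with or without normexp, and to -0.15 in the deposited table. At 3 dpi it was 0.23 (adjusted p = 0.016), or 0.11 relative to all genes. The other Mcl1 probe gave 0.12 and 0.25, and at 1 dpi it too turned negative under each of those scalings (-0.20 at the array median).

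Bcl2l2 read -0.35, -0.34 and -0.34 in Ctrl, -0.47, -0.45 and -0.41 at 1 dpi, and 0.20, -0.16 and -0.10 at 3 dpi. The values at 3 dpi lay above all others, and replicate 1 of that group was the highest. The log2 fold change was -0.10 at 1 dpi (adjusted p = 0.38) and 0.32 at 3 dpi (SE 0.094, adjusted p = 0.033), and the difference between the times was 0.42 (adjusted p = 0.0083). When arrays were scaled to their median the values against Ctrl were -0.43 and 0.17, and without 3 dpi replicate 1 the second was 0.21.

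Of the effectors, Bax had the largest change of the 10 members at 1 dpi by its brightest probe, though not by the mean of its probes (2.02, against 2.24 for Bbc3). That brightest probe read 2.83, 2.76 and 2.72 in Ctrl, 5.21, 5.16 and 5.20 at 1 dpi, and 3.61, 3.72 and 3.76 at 3 dpi. The 3 groups were far apart relative to their spread, with every 3 dpi array between the others. Bax rose by 2.42 on the log2 scale at 1 dpi (SE 0.063, adjusted p = 3.6e-07), a 5.34-fold change that was 2.19 above the median of all genes. At 3 dpi the difference from Ctrl was 0.93 (SE 0.063, adjusted p = 2.4e-05), and from 1 to 3 dpi Bax fell by 1.49 (SE 0.063, adjusted p = 8.8e-06).

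The other Bax probe is split on the genome, since its 60 bases span 156 bases of the genome at chr7:52721469-52721624 on the minus strand of mm9, and it is shown because it gave the same calls at 1 dpi from another place in the gene. It read 1.01, 0.90 and 0.89 in Ctrl, 2.52, 2.55 and 2.59 at 1 dpi, and 1.24, 1.81 and 1.86 at 3 dpi, where replicate 1 was the lowest. It rose by 1.62 at 1 dpi (adjusted p = 0.00011, SE 0.15), and gave 0.70 at 3 dpi (adjusted p = 0.0097). Between the times it gave -0.92 (adjusted p = 0.0022), and it passed 2-fold without 3 dpi replicate 2 (-1.004) or replicate 3 (-1.03).
Bax probe: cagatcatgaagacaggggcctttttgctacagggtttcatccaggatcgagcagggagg

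Bak1, the second effector, read 4.13, 4.20 and 4.20 in Ctrl, 4.09, 4.09 and 4.15 at 1 dpi, and 4.70, 4.58 and 4.51 at 3 dpi. Ctrl and 1 dpi overlapped, and every 3 dpi array was higher. The log2 fold change was -0.07 at 1 dpi (adjusted p = 0.41, SE 0.068) and 0.42 at 3 dpi (SE 0.068, adjusted p = 0.0025). Between the times it was 0.48 (adjusted p = 0.001), with the sign opposite to that of Bax. When arrays were scaled to their median the values against Ctrl were -0.39 and 0.27.

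Among the BH3-only members, Bbc3 had a profile like that of Bax. It read 1.84, 1.76 and 1.78 in Ctrl, 3.98, 4.07 and 4.07 at 1 dpi, and 2.66, 2.47 and 2.42 at 3 dpi. No groups overlapped. Bbc3 rose by 2.24 at 1 dpi (SE 0.077, adjusted p = 1e-06), a 4.74-fold change and 2.02 above all genes, was 0.72 above Ctrl at 3 dpi (SE 0.077, adjusted p = 0.00026), and fell by 1.52 between the times (SE 0.077, adjusted p = 1.4e-05).

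Pmaip1 read 2.87, 2.59 and 2.60 in Ctrl, 4.19, 4.21 and 4.18 at 1 dpi, and 3.49, 3.55 and 3.51 at 3 dpi. The groups did not overlap, and Ctrl replicate 1 was the highest of its group. Pmaip1 rose 2.83-fold at 1 dpi (log2 1.50, SE 0.084, adjusted p = 8.7e-06), which was 1.28 above all genes. It was 0.83 above Ctrl at 3 dpi (SE 0.084, adjusted p = 0.00021) and differed by -0.68 between the times (SE 0.084, adjusted p = 0.00061). Without Ctrl replicate 1 the changes at 1 dpi were 2.45 for Bax, 2.27 for Bbc3 and 1.60 for Pmaip1. The fit with the slide as a fixed block must give the same values, since that array is alone on its slide, so it is not a separate check.

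Bcl2l11 read 0.71, 0.26 and 0.35 in Ctrl, 0.88, 0.98 and 0.98 at 1 dpi, and 1.06, 1.13 and 1.07 at 3 dpi by its brightest probe. Both irradiated groups lay above Ctrl, whose replicate 1 was the highest. The gene encodes a BH3-only protein that can bind every anti-apoptotic member. The log2 fold change was 0.50 at 1 dpi (adjusted p = 0.0073, SE 0.11) and 0.65 at 3 dpi (SE 0.11, adjusted p = 0.0037), and the first was 0.18 when arrays were scaled to their median. The other 3 probes gave 1.098, 0.93 and 1.30 at 1 dpi, and the first and last of these were called (adjusted p = 2.7e-05 and 4.6e-05). When arrays were scaled to their median both were short of 2-fold (0.77 and 0.97), as was the first relative to all probes (0.90) and the last after normexp and quantile normalization (0.61). At 3 dpi they gave 0.40, 0.24 and 0.51.

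From 1 to 3 dpi the dimmer Bcl2l11 probes gave -0.70, -0.69 and -0.79 (adjusted p = 0.00034, 0.001 and 0.00069), whereas the brightest gave 0.14 (adjusted p = 0.35). The sign for the gene therefore depended on the probe, with -0.51 for the mean of its probes and -0.72 in the deposited table. The dimmest probe, whose 60 bases span 11096 bases at chr2:127972893-127983988 on the plus strand of mm9, is shown because its difference between the times was opposite in sign to that of the brightest.
Bcl2l11 probe: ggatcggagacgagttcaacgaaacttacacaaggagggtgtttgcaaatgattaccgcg

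Bid, which links death receptors to mitochondria after cleavage, read 2.86, 2.65 and 2.67 in Ctrl, 2.46, 2.51 and 2.55 at 1 dpi, and 2.63, 2.75 and 2.69 at 3 dpi. The 1 dpi arrays lay below Ctrl, and the 3 dpi arrays overlapped it. The log2 fold change was -0.22 at 1 dpi (adjusted p = 0.038, SE 0.075), and -0.04 at 3 dpi (adjusted p = 0.71). The second turned to 0.03 without Ctrl replicate 1, and across the alternatives it went down to -0.31, or to -0.19 by the same probe. When arrays were scaled to their median the first was -0.55. Its second probe, for ENSMUST00000125915, was well above background on 8 arrays and spread widely, from -5.93 to -3.97, and gave 0.84 at 1 dpi (SE 0.47, adjusted p = 0.16), or 0.43 without Ctrl replicate 1, 1.12 without Ctrl replicate 3 (not called), 0.51 when arrays were scaled to their median, and 0.35 after quantile normalization (0.12 with normexp). The mean of both probes was 0.31 higher at 1 dpi, opposite in sign to the brighter probe, as were the deposited values (0.35).

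**Figure D2:**
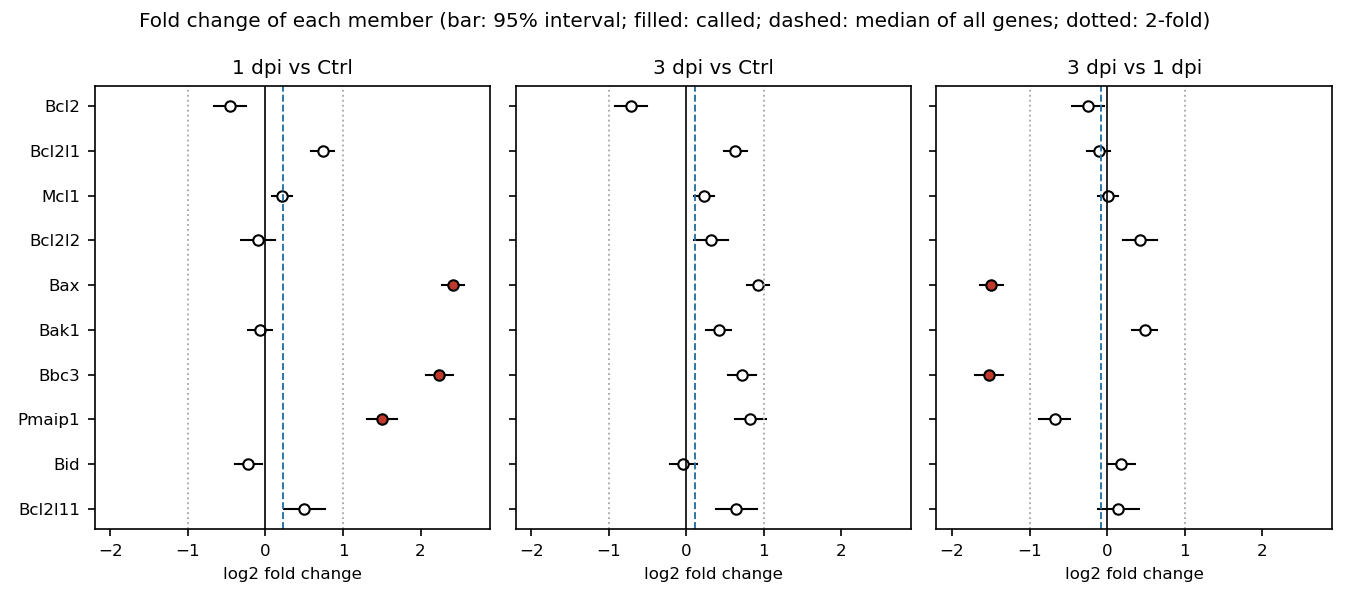
Log2 fold change (horizontal axis) of each of the 10 members in the 3 comparisons, with 95% intervals from limma over 3 arrays per group. Filled points are called, the dashed line is the median of all genes, and dotted lines mark a 2-fold change. Bax (2.42), Bbc3 (2.24) and Pmaip1 (1.50) lie past 2-fold at 1 dpi, and Mcl1 (0.22) lies at the median of all genes, where its sign depends on the scaling.

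**Figure D3:**
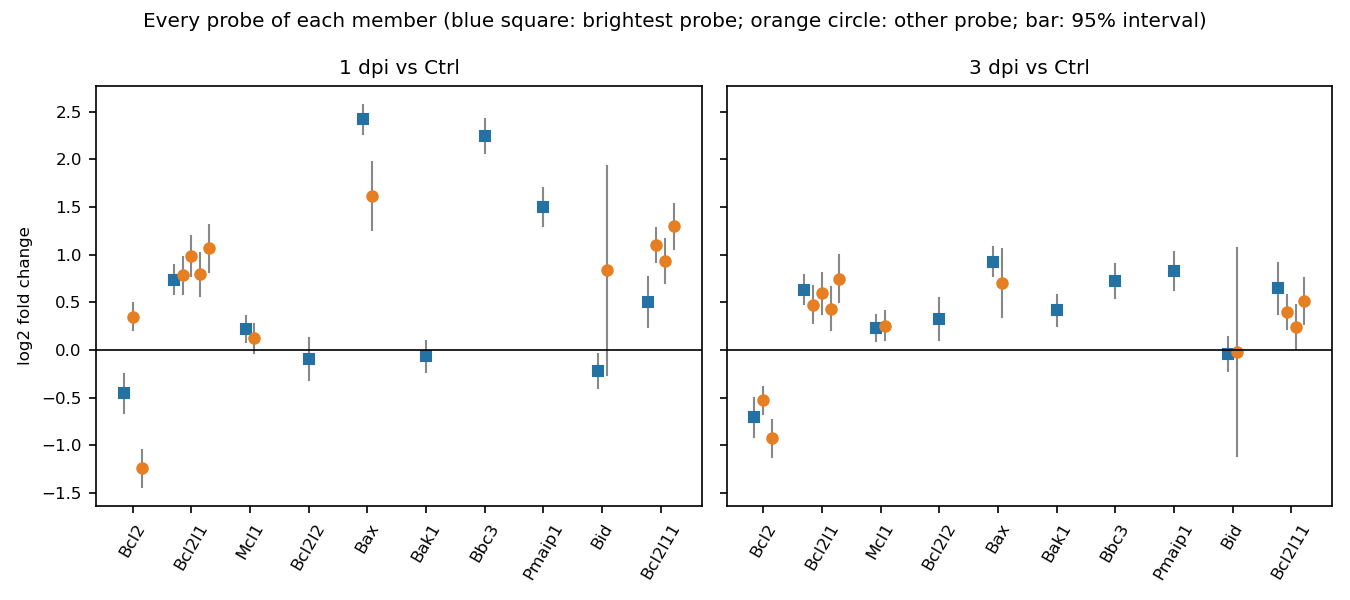
Log2 fold change against Ctrl (vertical axis) of all 22 probes of the 10 members at 1 dpi and 3 dpi, with 95% intervals from limma over 3 arrays per group. Squares are the brightest probe of each member and circles the other probes. The probes of Bcl2 gave -0.46, 0.35 and -1.24 at 1 dpi, and the dim Bid probe has the widest interval.

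Over single probes, 8 of 22 were called at 1 dpi, 0 at 3 dpi and 2 between the times, against 14.3%, 8.47% and 8.57% of all probes. The 8 were both Bax probes, the Bbc3 and Pmaip1 probes, 2 of Bcl2l11 and 1 of Bcl2l1, all higher, and 1 of Bcl2, lower. The 0 at 3 dpi is by limma, which passed 20 of the 22 probes at an unadjusted p below 0.05 and 19 at an adjusted p below 0.05, against 42.4% and 32.7% of all probes. The methods' test passed 19 and 17 of the 22, against 36.6% and 24.5% of all probes.

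Grouped by role, the 4 anti-apoptotic members centered on 0.06 (median, log2) at 1 dpi, or -0.17 relative to all genes. For the 2 effectors the median was 1.18 (0.95 relative to all genes), with Bax and Bak1 far apart, and the 4 BH3-only members 1.00 (0.78 relative to all genes). At 3 dpi the medians relative to all genes were 0.16, 0.55 and 0.57. From 1 to 3 dpi they were 0.04, -0.42 and -0.18. These are descriptions of few genes and were not tested.

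Differences between a pro-apoptotic and an anti-apoptotic member on the same array do not depend on a shift of the whole array. For 6 such pairs an exact two-sided permutation test was made in 3 comparisons, 18 tests in all. With 3 arrays against 3 the smallest p of this exact test is 0.10, so it cannot pass 0.05. By this exact test every one of the 18 gave p = 0.10, also after Benjamini-Hochberg adjustment. In each of them the arrays of the groups did not overlap. Of all single genes 67.2% did not overlap at 1 dpi against Ctrl, 47.2% at 3 dpi against Ctrl and 65.2% between the times. Other pairs of genes were not tested. Only changes of such a difference are read, since its level depends on the probes.

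Bax minus Bcl2l1 was -0.64, -0.61 and -0.63 in Ctrl, 1.05, 1.04 and 1.08 at 1 dpi, and -0.48, -0.31 and -0.20 at 3 dpi. It was higher by 1.68 at 1 dpi and by 0.30 at 3 dpi than in Ctrl, and it changed by -1.38 between the times, or by -0.91 with the mean of the probes of each gene. Bbc3 minus Bcl2l1 was -1.63, -1.61 and -1.57 in Ctrl, -0.18, -0.06 and -0.05 at 1 dpi, and -1.44, -1.56 and -1.53 at 3 dpi. It differed from Ctrl by 1.51 at 1 dpi and by 0.09 at 3 dpi, or by 0.06 without 3 dpi replicate 1 and 0.15 with the mean of the probes.

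Against Mcl1, the difference of Bbc3 from Ctrl was 2.03 at 1 dpi and 0.49 at 3 dpi, and that of Pmaip1 was 1.28 and 0.60. The differences with Bak1 went the other way at 1 dpi, although Bak1 itself gave only -0.07 (adjusted p = 0.41 by limma). Bak1 minus Bcl2l1 was 0.66, 0.83 and 0.85 in Ctrl, -0.07, -0.03 and 0.03 at 1 dpi, and 0.60, 0.54 and 0.55 at 3 dpi, a change of -0.80 and then -0.22 against Ctrl. Bak1 minus Mcl1 differed from Ctrl by -0.29 at 1 dpi, or -0.09 after quantile normalization, and by 0.19 at 3 dpi. The difference was thus higher at 1 dpi in the 4 pairs with Bax, Bbc3 or Pmaip1, and lower in the 2 with Bak1. In those 2 pairs the subtracted genes Bcl2l1 and Mcl1 gave 0.74 and 0.22 at 1 dpi, and the sign of Mcl1 depended on the scaling.

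**Figure D4:**
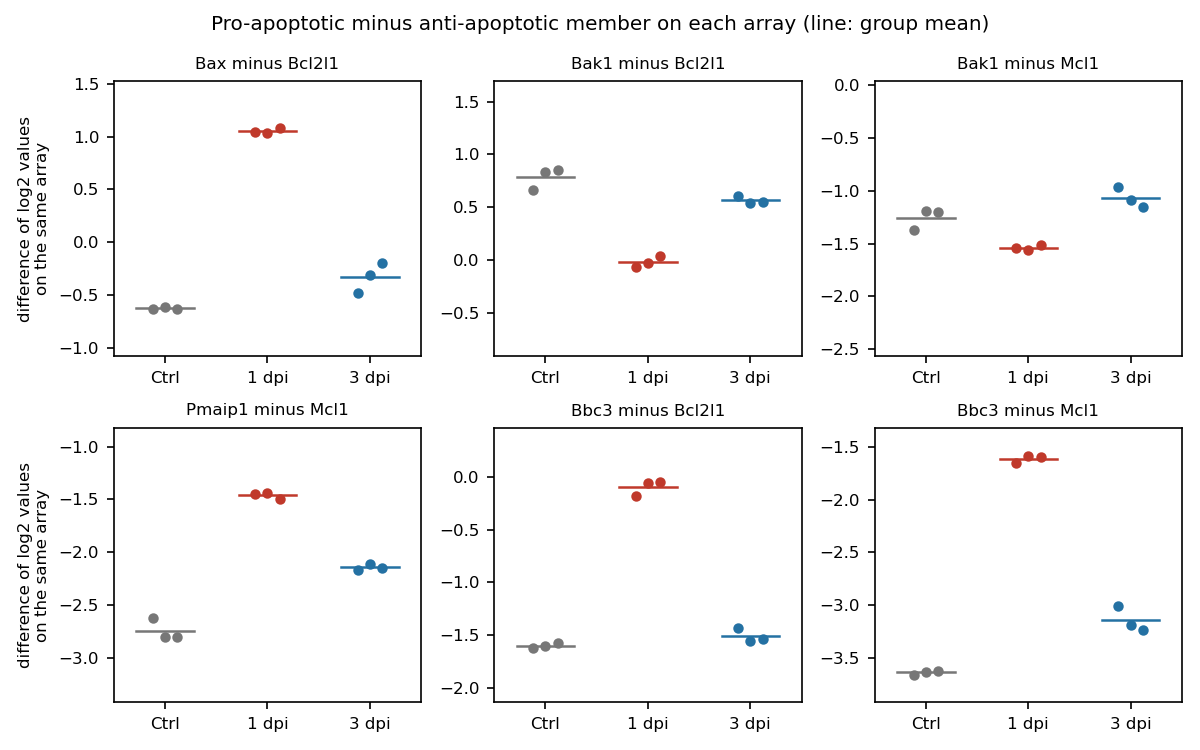
Difference of log2 values on the same array (vertical axis) between a pro-apoptotic and an anti-apoptotic member, for 6 pairs on the 3 arrays of Ctrl, 1 dpi and 3 dpi. Points are arrays and lines group means. Bax minus Bcl2l1 lies near -0.63 in Ctrl and near 1.05 at 1 dpi, and Bak1 minus Bcl2l1 is lower at 1 dpi than in Ctrl.

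The deposited log2 table has 1 value per gene name, and all 10 members are in it. Each member's deposited values equaled the quantile-normalized log2 intensity of 1 of its probes to within 0.0023, and for 5 of 10 members (Bcl2, Bcl2l1, Mcl1, Bid and Bcl2l11) that was not the brightest probe. With the deposited values 5 members were called at 1 dpi, the 3 above together with Bcl2 (-1.33) and Bcl2l11 (1.12), against 16.8% of all genes in that table that were tested. Between the times 2 were called, against 12.4%. At 3 dpi limma again called 0 with those values, against 11.4%, and it passed 8 members at an unadjusted p below 0.05 and 8 at an adjusted p below 0.05, against 43.3% and 34.4%. The methods' test passed 7 and 6, against 38.8% and 27%.

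Genes with values most like each member over the 9 arrays were found by the root mean square difference of mean-centered log2 values. For Bax they were Isg15 (0.0896), Oasl1 (0.102) and Serpina3f (0.117), and for Bbc3 they were Oasl2 (0.0631), Usp18 (0.0853) and Cep170b (0.0871). For Pmaip1 they were Slc19a2 (0.0445), Il18bp (0.0501) and Smox (0.0632). Isg15, Oasl1, Oasl2 and Usp18 are known as interferon-induced genes. Over 9 arrays in 3 groups, values can be this alike through similar group differences alone, and shared control was not tested. The nearest gene was Rai1 (0.0349) for Bcl2, Slc43a2 (0.04) for Bcl2l1, Cox5a (0.0317) for Mcl1, Txndc5 (0.0447) for Bcl2l2, Slc6a6 (0.0442) for Bak1, Saal1 (0.0269) for Bid and Cyria (0.0568) for Bcl2l11.

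Of 12 tested among 15 other genes of the BCL2 family, 2 rose at 1 dpi, Bcl2a1d (1.15) and the effector-like Bok (1.02), and Bcl2a1d also rose at 3 dpi (1.09). Hrk, a BH3-only gene, fell between the times (-1.10). Bok was short of 2-fold without Ctrl replicate 3 (0.99), without 1 dpi replicate 1 (0.91) and under every other scaling, Bcl2a1d when arrays were scaled to their median (0.83 and 0.93) and relative to all genes (0.93 and 0.97), and Hrk without 3 dpi replicate 3 (-0.96), when arrays were scaled to their median (-0.93) and after quantile normalization (-0.94, or -0.42 with normexp). Bmf, another BH3-only gene, gave -0.88 at 1 dpi (adjusted p = 8.9e-05), which passed 2-fold and was called when arrays were scaled to their median (-1.20) and relative to all genes (-1.103), and turned to 0.029 with the mean of its probes. Between the times it gave 0.78, or 0.044 with the mean of its probes. Bcl2a1a, Bcl2a1b and Bcl2l10 were not among the genes tested. The share called among all genes was 14.8% at 1 dpi, close to that of this list, 8.83% at 3 dpi and 8.64% between the times. The median relative to all genes was 0.01, -0.11 and 0.06 in the 3 comparisons.

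Of 17 genes of the apoptosome and caspases, 1 fell at 1 dpi, the executioner caspase Casp6 (-1.08), and it rose between the times (1.11). Among all genes 14.8% were called at 1 dpi, 8.83% at 3 dpi and 8.64% between the times. Without Ctrl replicate 1, and after normexp and quantile normalization, the first was -0.99, short of 2-fold. At 1 dpi 4 genes of the list were called when arrays were scaled to their median and 4 with the deposited values. The median relative to all genes was -0.36, -0.04 and 0.34 in the 3 comparisons. At 3 dpi limma called 0 of the 17, with 5 at an unadjusted p below 0.05 and 6 by the methods' test, and 1 was called with the deposited values.

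Of 13 tested among 15 genes that control turnover of the family's proteins, limma called 0 in any comparison, with 11, 6 and 8 at an unadjusted p below 0.05 and as many by the methods' test, though 1 was called at 3 dpi without Ctrl replicate 2, Ctrl replicate 3, 3 dpi replicate 2 or 3 dpi replicate 3, and 1 at 1 dpi without 3 dpi replicate 2. Other scalings and the deposited table called up to 1 at 1 dpi and up to 2 at 3 dpi, and 1 was called at 1 dpi without a filter on dim probes. Its March5 and Usp13 were not tested, and its median relative to all genes was -0.24, -0.10 and 0.02. Of 15 genes of the mitochondrial outer membrane and mitochondrial shape it also called 0 throughout, with 8, 5 and 9 at an unadjusted p below 0.05 and 8, 5 and 11 by the methods' test, though 1 was called in each comparison with the deposited values, and the median was -0.35, 0.01 and 0.29. At that threshold limma passed 61.7%, 41.5% and 52.1% of all genes in the 3 comparisons, and the methods' test 52.9%, 35.8% and 56.8%, or 42.8%, 24.1% and 48.1% after adjustment. Called genes were 14.8%, 8.83% and 8.64% of all genes.

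Of 18 genes that feed into transcription of the family, 3 were called at 1 dpi, close to the share of 14.8% among all genes. That share was 8.83% at 3 dpi and 8.64% between the times. The p53 targets Cdkn1a, a cell cycle inhibitor, and Mdm2, the ligase that limits p53, rose by 3.85 and 1.65, and Myc fell by 1.44, and 6 genes of the list were called with the deposited values. At 3 dpi Cdkn1a alone of the 18 was called under the main scaling (2.48, or 3.97 in the deposited table). A further gene of the list was called at 3 dpi when arrays were scaled to their median, and also with the deposited values. Between the times Cdkn1a (-1.36), Mdm2 (-1.07) and Trp63 (-1.10) fell, but Mdm2 was short of 2-fold when arrays were scaled to their median (-0.90), after quantile normalization (-0.86, or -0.84 with normexp) and relative to all genes (-0.99). Trp63 was short of 2-fold when arrays were scaled to their median (-0.92) and with the mean of its probes (-0.38), and had the opposite sign in the deposited table (0.57). Myc was short of 2-fold by the mean of its probes (-0.86). The median of the list relative to all genes was -0.10, -0.24 and -0.13.

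Sequences before the start sites were searched on both strands for the consensus of the p53 half-site, a motif of 10 letters. RefSeq promoter windows of 300 bases, 250 before and 50 after the start, were used for 9 members with 14 windows (GRCm38.p6). The motif was found in 1 window, that of Bax, and in 2745 of all 32851 promoter windows (8.36%). It was in 0 of 3 windows of Bbc3, which says only that these letters are not in them. The 250 bases before the Bax start, at chr7:45466899-45467148 on the minus strand of GRCm38.p6, are shown with the match in capitals, which begins 201 bases before the start.
Bax promoter: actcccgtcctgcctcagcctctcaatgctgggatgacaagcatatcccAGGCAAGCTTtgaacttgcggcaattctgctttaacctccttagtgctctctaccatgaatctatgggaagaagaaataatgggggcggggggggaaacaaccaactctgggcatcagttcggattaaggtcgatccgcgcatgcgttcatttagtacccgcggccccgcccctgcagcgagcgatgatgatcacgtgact

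Markers of the cell type were checked, because the family's members are expressed in many blood cells. All 12 megakaryocyte markers were well above background on all 9 arrays, and Pf4 had the brightest probe. The sum of their scaled intensities was 186, 166 and 165 in Ctrl, 182, 167 and 165 at 1 dpi, and 196, 194 and 192 at 3 dpi. By limma 0 of 12 were called in any comparison, with 6, 4 and 8 at an unadjusted p below 0.05 and 5, 4 and 9 by the methods' test, and 1 was called between the times without 1 dpi replicate 1, 1 dpi replicate 2 or 3 dpi replicate 3. When arrays were scaled to their median 1 was called at 1 dpi and 2 between the times, relative to all genes 1 and 1, and with the deposited values 1 at 3 dpi. Fewer cells of a type and less RNA per cell cannot be told apart in these bulk samples.

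Markers of other blood cells moved with the groups. Beside the counts of all marker lists, 14.8% of all genes were called at 1 dpi, 8.83% at 3 dpi and 8.64% between the times. Of 12 B-cell precursor markers 11 fell at 1 dpi and 10 at 3 dpi. Between the times 4 of them rose, but 1 was called after normexp and quantile normalization. Their sum went from 49.1, 45.6 and 46.5 in Ctrl to 10.68, 10.49 and 10.63 at 1 dpi and 13.45, 13.04 and 12.87 at 3 dpi. Cd79b had the brightest probe, Vpreb3 moved most (-5.44, -3.95 and 1.48), and Rag1 and Rag2 were not well above background on every 1 dpi array, nor Rag1 at 3 dpi.

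Of 12 erythroid markers 8 fell and 2 rose at 1 dpi, 10 fell at 3 dpi, and 4 rose and 3 fell between the times. Their sum, in which Hba-a1 had the brightest probe, was 158, 129 and 133 in Ctrl, 346, 285 and 281 at 1 dpi, and 51.8, 51.9 and 48.4 at 3 dpi. Hba-a1 alone made up most of this sum, so the higher sum at 1 dpi ran against the 8 markers that fell. Epb42 was not well above background on every array at 1 dpi or at 3 dpi. Ahsp moved most at 1 dpi (-7.64) and between the times (5.01). At 3 dpi Epb42 gave -2.82, or -2.63 without 3 dpi replicate 1, on which it was dim, and -1.07 after normexp and quantile normalization.

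Of 12 macrophage markers 4 rose and 1 fell at 1 dpi, 8 rose at 3 dpi and 7 rose between the times. Their sum, with the brightest probe for Lyz2, was 291, 328 and 318, then 522, 478 and 483, then 469, 426 and 460 in Ctrl, 1 dpi and 3 dpi. Cd163 moved most at 1 dpi (-2.09) and between the times (2.83), and Siglec1 at 3 dpi (2.84). Of 11 stromal markers 7 rose at 1 dpi, 7 at 3 dpi and 5 between the times. Their sum, with the brightest probe for Cxcl12, was 15, 14.3 and 15.1, then 71.6, 62.0 and 67.6, then 138, 125 and 136. Cxcl12 moved most at 1 dpi (2.69), and Adipoq at 3 dpi (4.24) and between the times (3.51).

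Of 11 neutrophil markers 1 rose at 1 dpi, S100a8 (1.12, short of 2-fold under every other scaling and in the deposited table, with 0.39 to 0.90), or 2 without Ctrl replicate 2, 1 dpi replicate 2 or 1 dpi replicate 3, and limma called 0 at 3 dpi and between the times, with 1 and 10 at an unadjusted p below 0.05 and the same by the methods' test, and 1 was called between the times without 3 dpi replicate 1. Their sum, with the brightest probe for Mpo, was 1814, 1888 and 1884, then 3084, 2902 and 2874, then 2007, 1799 and 1901. Of 10 T and NK cell markers 1 rose and 1 fell at 1 dpi (Cd2, -1.88), 4 rose at 3 dpi (most of all Il2rb, 2.47) and 4 between the times (Cd2, 1.54). Their sum, with the brightest probe for Nkg7, was 45.7, 47.1 and 45.1, then 63.56, 60.05 and 60.01, then 58.8, 52.9 and 51.7. Of 9 endothelial markers 4 rose at 1 dpi, 6 at 3 dpi (Cdh5, 1.71 and 2.41) and 1 between the times (Stab2, 1.56), or 3 without 1 dpi replicate 3 and 2 without 3 dpi replicate 1 or 2. Their sum, with the brightest probe for Egfl7, was 11.63, 10.75 and 10.98, then 18.4, 16.4 and 16.4, then 23.0, 19.6 and 20.0, and Flt4 was not well above background on every array of Ctrl and 1 dpi. The part of these cells in the changes of the BCL2 family was not tested.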

How the data were processed

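Total RNA of 9 samples was hybridized to single-color Agilent arrays (design 074809, probes placed on mm9). The authors deposited scanner intensity for each spot, background-subtracted by Agilent Feature Extraction 10.7.1.1 with no scaling between arrays. A deposited log2 table holds 27275 gene names, normalized between arrays by a method that is not stated, with column medians of 5.84, 5.84 and 5.83 in Ctrl, 5.80, 5.80 and 5.79 at 1 dpi, and 5.86, 5.86 and 5.87 at 3 dpi. The study's methods name an Affymetrix chip, whereas the files are Agilent.

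Of 62976 spots on each array 3671 were controls, and repeated spots of a probe were combined into 56605 probes, of which 20 were dropped for outlier flags. Processed intensity was taken to log2, and the 75th percentile of the 56585 probes left was subtracted on each array. A probe had to be well above background on every array of 1 group or more, which left 44300 probes, and the brightest probe stood for each of 29410 genes. The share of spots well above background ran from 69.1% to 81.8%, 0 were saturated, and the number of arrays limits the precision. Groups were those of the labels. A single limma model gave the 3 comparisons, with Benjamini-Hochberg adjustment over all genes, and genes at an adjusted p below 0.05 and an absolute log2 fold change of at least 1 were called. Differences within an array were compared by an exact two-sided permutation test. Alternatives were other scalings, normexp with an offset of 50, the deposited table, other filters and probe rules, the methods' unpaired equal-variance test, slide and replicate blocks, and leaving out each array. The code was checked on simulated data.

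Names were taken from all 10 members, the list of other BCL2 family genes, the 3 called genes with the largest change in each other pathway list, the gene with the brightest probe and the most changed called gene of each marker list, and the 3 genes nearest each member over the 9 arrays, and not all of these are printed. The pathway lists were other BCL2 family genes, apoptosome and caspases, turnover of the family, mitochondrial outer membrane and shape, and transcriptional inputs, and the marker lists were megakaryocyte, B-cell precursor, T and NK cell, erythroid, neutrophil, macrophage, stromal and endothelial. Members and lists were chosen with earlier results of these data known. The signal over background of some erythroid markers is not reported here. Tools were R 4.3.3, limma 3.58.1, data.table (version 1.17.8), Python 3.11.15 and matplotlib 3.10.9.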

Additional observations from a re-analysis of the deposited data

Results flagged for a closer look

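The log2 fold change against Ctrl differed between 1 and 3 dpi for 5 of the 10 members, by limma's test of 3 dpi against 1 dpi at an adjusted p below 0.05, which 44.3% of all genes also passed. It was lower at 3 dpi by the largest amounts for Bbc3 (-1.52, adjusted p = 1.4e-05) and Bax (-1.49, adjusted p = 8.8e-06), followed by Pmaip1 (-0.68, adjusted p = 0.00061). It was higher at 3 dpi for Bak1 (0.48, adjusted p = 0.001) and Bcl2l2 (0.42, adjusted p = 0.0083). Both fold changes share the Ctrl arrays, so each difference rests on the 1 and 3 dpi arrays alone. The causes were not tested.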

How the results depend on the processing

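Bax, Bbc3 and Pmaip1 were called at 1 dpi, and Bax and Bbc3 between the times, under every alternative run. By their brightest probe or the mean of their probes the other members were short of 2-fold under every alternative run, but Bcl2 and Bcl2l11 were called at 1 dpi with the deposited table. Single probes of Bcl2, Bcl2l1 and Bcl2l11 were also called at 1 dpi. The sign of Mcl1 at 1 dpi rests on the scaling. With 3 arrays a group, an exact two-sided test cannot go below 0.10. Ctrl replicate 1 was alone on its slide, so slide and array cannot be told apart. Array brightness and markers of other cells differed between the groups. Dim probes near background, such as the second of Bid, limit what can be read. The single-probe alternatives were chosen after seeing the data. Of 720 values of members under the alternatives 646 kept direction and side of the threshold, 57 passed it newly and 17 turned sign. In each case below the cause was not tested, apart from the settings that move the threshold itself.

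Scaled to the array median the log2 fold change turned sign for Mcl1 -0.11 at 1 dpi, Bcl2l1 0.068 between the times, Bad -0.0053 at 1 dpi, Bcl2l14 -0.17 at 1 dpi, Bcl2l13 -0.24 at 1 dpi, Bcl2l12 -0.29 at 1 dpi, Bcl2l13 -0.020 at 3 dpi, Bad -0.035 at 3 dpi and Bcl2a1d 0.11 between the times. For single probes scaled to the array median it turned sign for A_51_P238786 of Mcl1 -0.20 at 1 dpi, A_55_P2740649 of Mcl1 -0.11 at 1 dpi and A_55_P1974877 of Bcl2l1 0.068 between the times, came to pass the threshold for A_52_P438280 of Bcl2 -1.08 at 3 dpi, and was short of the threshold for A_51_P484880 of Bcl2l11 0.97 at 1 dpi, A_55_P2500448 of Bcl2l1 0.74 at 1 dpi and A_55_P2504051 of Bcl2l11 0.77 at 1 dpi. Lists scaled to the array median whose count of called genes moved over 1.5-fold had other BCL2 family 1, apoptosome and caspases 4, BCL2 family turnover 1, megakaryocyte 1 and neutrophil 0 at 1 dpi, other BCL2 family 0, BCL2 family turnover 2 and transcriptional inputs 2 at 3 dpi, other BCL2 family 0, apoptosome and caspases 3, transcriptional inputs 1, megakaryocyte 2 and endothelial 3 between the times.

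After quantile normalization the log2 fold change turned sign for Mcl1 -0.064 at 1 dpi, Bcl2l14 -0.070 at 1 dpi and Bcl2l13 -0.0027 between the times. For single probes after quantile normalization it turned sign for A_51_P238786 of Mcl1 -0.15 at 1 dpi and A_55_P2740649 of Mcl1 -0.064 at 1 dpi and was short of the threshold for A_55_P2500448 of Bcl2l1 0.63 at 1 dpi. Lists after quantile normalization whose count of called genes moved over 1.5-fold had other BCL2 family 1 and neutrophil 0 at 1 dpi, BCL2 family turnover 1 at 3 dpi, other BCL2 family 0 and endothelial 3 between the times. Differences within an array that moved by more than their SD were Bax minus Bcl2l1 1.63 at 1 dpi, Bak1 minus Mcl1 -0.091 at 1 dpi, Bak1 minus Mcl1 0.29 between the times, Pmaip1 minus Mcl1 1.54 at 1 dpi, Pmaip1 minus Mcl1 -0.87 between the times, Bbc3 minus Mcl1 2.30 at 1 dpi and Bbc3 minus Mcl1 -1.73 between the times.

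After normexp and quantile normalization genes called were 1660 at 1 dpi, 1142 at 3 dpi and 1079 between the times. After normexp and quantile normalization the log2 fold change turned sign for Mcl1 -0.057 at 1 dpi, Bcl2l14 -0.070 at 1 dpi and Bcl2l13 -0.0014 between the times. For single probes after normexp and quantile normalization it turned sign for A_51_P238786 of Mcl1 -0.15 at 1 dpi and A_55_P2740649 of Mcl1 -0.057 at 1 dpi and was short of the threshold for A_51_P484880 of Bcl2l11 0.61 at 1 dpi and A_55_P2500448 of Bcl2l1 0.24 at 1 dpi. Lists after normexp and quantile normalization whose count of called genes moved over 1.5-fold had other BCL2 family 1, apoptosome and caspases 0 and neutrophil 0 at 1 dpi, other BCL2 family 0 and B-cell precursor 1 between the times. Differences within an array that moved by more than their SD were Bax minus Bcl2l1 1.61 at 1 dpi, Bak1 minus Mcl1 -0.094 at 1 dpi, Bak1 minus Mcl1 0.29 between the times, Pmaip1 minus Mcl1 1.51 at 1 dpi, Pmaip1 minus Mcl1 -0.86 between the times, Bbc3 minus Mcl1 2.26 at 1 dpi and Bbc3 minus Mcl1 -1.70 between the times.

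Relative to the median of all genes the log2 fold change turned sign for Mcl1 -0.0076 at 1 dpi, Bcl2l14 -0.074 at 1 dpi, Bcl2l13 -0.14 at 1 dpi, Bcl2l12 -0.19 at 1 dpi, Bad -0.0026 at 3 dpi and Bcl2a1d 0.015 between the times. For single probes relative to the median of all probes it turned sign for A_51_P238786 of Mcl1 -0.078 at 1 dpi, came to pass the threshold for A_52_P438280 of Bcl2 -1.002 at 3 dpi, and was short of the threshold for A_55_P2500448 of Bcl2l1 0.87 at 1 dpi and A_55_P2504051 of Bcl2l11 0.90 at 1 dpi. Lists relative to the median of all genes whose count of called genes moved over 1.5-fold had other BCL2 family 1, apoptosome and caspases 2, BCL2 family turnover 1, megakaryocyte 1 and neutrophil 0 at 1 dpi, other BCL2 family 0 and BCL2 family turnover 1 at 3 dpi, megakaryocyte 1 and endothelial 3 between the times.

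With the deposited log2 table the members called were 5 at 1 dpi. With the deposited log2 table the log2 fold change turned sign for Mcl1 -0.15 at 1 dpi, Bid 0.35 at 1 dpi, Bcl2 0.43 between the times, Bid -0.66 between the times, Bcl2l11 -0.72 between the times, Hrk 0.043 at 3 dpi, Bcl2l13 -0.27 at 3 dpi, Bcl2l13 -0.75 between the times and Trp63 0.57 between the times and came to pass the threshold for Bcl2 -1.33 at 1 dpi and Bcl2l11 1.12 at 1 dpi. Lists with the deposited log2 table whose count of called genes moved over 1.5-fold had apoptosome and caspases 4, BCL2 family turnover 1, mitochondrial outer membrane and shape 1, transcriptional inputs 6, T and NK cell 4 and neutrophil 0 at 1 dpi, apoptosome and caspases 1, BCL2 family turnover 1, mitochondrial outer membrane and shape 1, transcriptional inputs 2 and megakaryocyte 1 at 3 dpi, other BCL2 family 2, apoptosome and caspases 3, mitochondrial outer membrane and shape 1, transcriptional inputs 6, stromal 9 and endothelial 3 between the times.

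Lists without a filter on dim probes whose count of called genes moved over 1.5-fold had BCL2 family turnover 1 at 1 dpi, other BCL2 family 2 at 3 dpi.

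With the mean of probes the log2 fold change turned sign for Bid 0.31 at 1 dpi, Bid -0.34 between the times, Bcl2l11 -0.51 between the times, Bmf 0.029 at 1 dpi, Bmf 0.073 at 3 dpi, Bcl2l13 -0.49 between the times and Bcl2l15 -0.062 between the times. Differences within an array that moved by more than their SD were Bax minus Bcl2l1 1.14 at 1 dpi, Bax minus Bcl2l1 -0.91 between the times, Bak1 minus Bcl2l1 -0.94 at 1 dpi, Bak1 minus Bcl2l1 0.78 between the times, Pmaip1 minus Mcl1 -0.74 between the times, Bbc3 minus Bcl2l1 1.37 at 1 dpi, Bbc3 minus Bcl2l1 0.15 at 3 dpi, Bbc3 minus Bcl2l1 -1.22 between the times and Bbc3 minus Mcl1 2.07 at 1 dpi.

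With the slide as a fixed block the log2 fold change turned sign for Bid 0.027 at 3 dpi. For single probes with the slide as a fixed block it turned sign for A_52_P574653 of Bid 0.027 at 3 dpi and came to pass the threshold for A_51_P299454 of Bcl2l1 1.02 at 1 dpi. Lists with the slide as a fixed block whose count of called genes moved over 1.5-fold had apoptosome and caspases 0 at 1 dpi.

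With the slide as a random block the log2 fold change turned sign for Bid 0.0080 at 3 dpi. For single probes with the slide as a random block it turned sign for A_52_P574653 of Bid 0.0031 at 3 dpi and came to pass the threshold for A_51_P299454 of Bcl2l1 1.01 at 1 dpi.

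Genes called without a minimum fold change were 16275 at 1 dpi, 9391 at 3 dpi and 13016 between the times, and members called were 8 at 1 dpi, 9 at 3 dpi and 5 between the times. Genes called by the methods' test at an unadjusted p were 15559 at 1 dpi, 10518 at 3 dpi and 16718 between the times, and members called were 9 at 1 dpi, 9 at 3 dpi and 8 between the times. Genes called by the methods' test at an adjusted p were 12597 at 1 dpi, 7083 at 3 dpi and 14160 between the times, and members called were 7 at 1 dpi, 8 at 3 dpi and 7 between the times.

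These 3 settings leave each log2 fold change as it is and move the threshold. At 1 dpi the members that passed were, under all 3, Bcl2 -0.46, Bcl2l1 0.74 and Mcl1 0.22, and, under all but the adjusted test of the methods, Bid -0.22 and Bcl2l11 0.50, and, by the methods' test only, at both levels, Bcl2l2 -0.10. At 3 dpi the members that passed were, under all 3, Bcl2 -0.71, Bcl2l1 0.63, Mcl1 0.23, Bax 0.93, Bak1 0.42, Bbc3 0.72, Pmaip1 0.83 and Bcl2l11 0.65, and, under all but the adjusted test of the methods, Bcl2l2 0.32. Between the times the members that passed were, under all 3, Bcl2l2 0.42, Bak1 0.48 and Pmaip1 -0.68, and, by the methods' unadjusted test only, Bcl2 -0.25, and, by the methods' test only, at both levels, Bid 0.18 and Bcl2l11 0.14.

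At 1 dpi the probes that passed were, under all 3, A_51_P299454 of Bcl2l1 0.98, A_51_P380013 of Bcl2 0.35, A_52_P348214 of Bcl2l11 0.93, A_52_P510877 of Bcl2l1 0.80, A_52_P534870 of Bcl2 -0.46, A_55_P1974877 of Bcl2l1 0.74, A_55_P2740649 of Mcl1 0.22 and A_66_P122989 of Bcl2l1 0.78, and, under all but the adjusted test of the methods, A_52_P158527 of Bcl2l11 0.50 and A_52_P574653 of Bid -0.22, and, by the methods' test only, at both levels, A_55_P2132507 of Bcl2l2 -0.10. At 3 dpi the probes that passed were, under all 3, A_51_P238786 of Mcl1 0.25, A_51_P248122 of Bbc3 0.72, A_51_P299454 of Bcl2l1 0.59, A_51_P380013 of Bcl2 -0.53, A_51_P477121 of Pmaip1 0.83, A_51_P484880 of Bcl2l11 0.51, A_52_P158527 of Bcl2l11 0.65, A_52_P438280 of Bcl2 -0.93, A_52_P510877 of Bcl2l1 0.43, A_52_P534870 of Bcl2 -0.71, A_55_P1974877 of Bcl2l1 0.63, A_55_P2013113 of Bak1 0.42, A_55_P2137406 of Bax 0.93, A_55_P2500448 of Bcl2l1 0.75, A_55_P2504051 of Bcl2l11 0.40, A_55_P2740649 of Mcl1 0.23 and A_66_P122989 of Bcl2l1 0.48, and, under all but the adjusted test of the methods, A_51_P254541 of Bax 0.70 and A_55_P2132507 of Bcl2l2 0.32. Between the times the probes that passed were, under all 3, A_51_P254541 of Bax -0.92, A_51_P299454 of Bcl2l1 -0.39, A_51_P380013 of Bcl2 -0.88, A_51_P477121 of Pmaip1 -0.68, A_51_P484880 of Bcl2l11 -0.79, A_52_P348214 of Bcl2l11 -0.69, A_52_P510877 of Bcl2l1 -0.37, A_55_P2013113 of Bak1 0.48, A_55_P2132507 of Bcl2l2 0.42, A_55_P2504051 of Bcl2l11 -0.70 and A_66_P122989 of Bcl2l1 -0.31, and, under all but the adjusted test of the methods, A_52_P438280 of Bcl2 0.32, and, without a minimum fold change only, A_55_P2500448 of Bcl2l1 -0.32, and, by the methods' test only, at both levels, A_51_P238786 of Mcl1 0.13, A_52_P158527 of Bcl2l11 0.14 and A_52_P574653 of Bid 0.18, and, by the methods' unadjusted test only, A_52_P534870 of Bcl2 -0.25.

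Under the same 3 settings in turn, called genes at 1 dpi were other BCL2 family 8, 9, 7, apoptosome and caspases 10, 11, 9, BCL2 family turnover 10, 11, 8, mitochondrial outer membrane and shape 8, 8, 7, transcriptional inputs 12, 12, 10, megakaryocyte 5, 5, 3, T and NK cell 7, 7, 6, neutrophil 8, 9, 8, macrophage 11, 10, 9 and endothelial 8, 8, 8. Under the same 3 settings in turn, called genes at 3 dpi were other BCL2 family 5, 5, 3, apoptosome and caspases 3, 6, 3, BCL2 family turnover 4, 6, 5, mitochondrial outer membrane and shape 4, 5, 4, transcriptional inputs 9, 9, 7, megakaryocyte 4, 4, 4, T and NK cell 8, 8, 6 and neutrophil 1, 1, 1. Under the same 3 settings in turn, called genes between the times were other BCL2 family 5, 6, 5, apoptosome and caspases 10, 13, 13, BCL2 family turnover 7, 8, 7, mitochondrial outer membrane and shape 9, 11, 10, transcriptional inputs 10, 11, 9, megakaryocyte 7, 9, 8, B-cell precursor 9, 9, 9, T and NK cell 8, 10, 9, erythroid 11, 11, 10, neutrophil 10, 10, 10, macrophage 12, 12, 12, stromal 8, 9, 8 and endothelial 8, 8, 6.

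Leaving out each array in turn gave 4361 genes at 1 dpi as 3543 to 5247, 2596 genes at 3 dpi as 2369 to 2790, 2542 genes between the times as 2231 to 2810, and 3, 0 and 2 members each time. The log2 fold changes that turned sign ranged for Bid at 3 dpi from -0.079 to 0.027 and Mcl1 between the times from -0.00072 to 0.017. Those of genes of the other BCL2 family ranged for Bcl2l12 at 1 dpi from -0.022 to 0.11, Bik between the times from -0.030 to 0.17 and Bcl2l15 between the times from -0.051 to 0.052. Among single probes those that turned sign, or gained or lost a call, ranged for A_51_P299454 of Bcl2l1 at 1 dpi from 0.93 to 1.02, A_55_P2500448 of Bcl2l1 at 1 dpi from 0.97 to 1.12, A_52_P574653 of Bid at 3 dpi from -0.079 to 0.027, A_55_P2719920 of Bid at 3 dpi from -0.43 to 0.47, A_55_P2740649 of Mcl1 between the times from -0.00072 to 0.017 and A_51_P254541 of Bax between the times from -1.03 to -0.72. Counts by list that moved over 1.5-fold, or from or to 0, ranged for apoptosome and caspases at 1 dpi from 0 to 1, neutrophil at 1 dpi from 1 to 2, other BCL2 family at 1 dpi from 1 to 2, BCL2 family turnover at 1 dpi from 0 to 1, BCL2 family turnover at 3 dpi from 0 to 1, megakaryocyte between the times from 0 to 1, endothelial between the times from 1 to 3, neutrophil between the times from 0 to 1 and other BCL2 family between the times from 0 to 1. The second Bid probe, which was not called without any 1 array, ranged from 0.43 to 1.12 at 1 dpi and from -1.14 to -0.36 between the times.

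With the replicate block, limma called 4186 genes at 1 dpi, 2505 at 3 dpi and 2455 between the times, and 3, 0 and 2 members. Correlations of arrays with the same replicate number ran from -0.11 to 0.13, and 1 of 9 was over 0.1. With the replicate block, with 2 groups in the fit and with the stricter filter, each log2 fold change that these settings gave kept its side of the threshold. Counts of called genes stayed within 1.5-fold. Directions could not change under the block or the fit of 2 groups, which leave each log2 fold change as it is in this balanced design. The stricter filter likewise does not alter the values of a probe that it keeps. The stricter filter left out Epb42, Bik and the second Bid probe, and under it the share of higher calls between the times was 39.6%, against 48.2%. Differences within an array were not run under these 3 settings.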
